A study of Mus musculus with 27 samples.

Results

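Cell adhesion molecules of the immunoglobulin family sit on growing axons and on the cells that line their path, and hold axons to one another and to their substrate. The 8 genes followed here are the classical axonal members, taken by name with no threshold on a measured value: Ncam1, the L1 family genes L1cam, Chl1, Nrcam and Nfasc, the contactins Cntn1 and Cntn2, and Alcam. They are 8 of the 55487 genes listed, all 8 were found, and all 8 passed the filter on low counts (over 10 reads in 3 or more of the 27 libraries), as did 16330 genes in all. The libraries came from the optic stalk of mouse embryos at embryonic day 14, the tube through which retinal ganglion cell (RGC) axons leave the eye. From 4 control and 5 Smarcc1-DCT-cKO embryos (called mutants below), laser capture took a dorsal piece, a ventral piece and the band of RGC axons, which gives 6 groups of 4 or 5 libraries.

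The mutants carried homozygous loxP alleles of Baf155, the gene now named Smarcc1, together with Dct-Cre and the Z/EG reporter, and the controls were littermates lacking Dct-Cre. All lines were kept on a C57Bl6/J background. Smarcc1 encodes a core part of SWI/SNF, a complex that remodels chromatin, and the Dct promoter drives Cre in the pigmented eye lineages and in the stalk. The paper also reports Cre reporter signal in the ciliary margin zone. Whether the retinal neurons that send the axons kept Smarcc1 was not tested here. The genotypes of single embryos beyond these labels were not used here. Batch A held control 1 and mutants 1 to 3, and batch B held controls 2 to 4 and mutants 4 and 5. Libraries of 1 genotype that share a number were taken as 1 embryo.

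NCAM binds NCAM on neighbouring cells. The L1 family proteins bind themselves and each other, and their short cytoplasmic tails anchor to the spectrin skeleton through ankyrin. Contactins have no such tail, being held to the membrane by a lipid anchor, and signal through partners such as the L1 family, Caspr proteins and receptor phosphatases. Alcam binds itself and guides RGC axons into bundles. The RNA of all these genes is made chiefly in the cell body, whereas an axon band holds axon shafts together with the glial precursors, vessels and connective tissue around them. In bulk pieces of tissue, fewer cells of a type and less RNA per cell cannot be told apart.

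Library totals ran from 10.9 to 34.0 M counts (M for 1e6), so that 1 read equals 0.0294 to 0.0917 CPM (counts scaled to a total of 1e6), and counting error is small beside the spread between embryos. A gene at 0 reads may lie at up to 3 reads, and a group with no library over 3 reads is treated as at that floor. Reads were PCR-amplified without molecular identifiers, so such limits cover counting error only. Smarcc1 stood at 75.7 to 198 CPM in ventral controls and 14.7 to 64.4 in ventral mutants, at 50.1 to 242 in axon controls and 1.86 to 44.9 in axon mutants, and overlapped in the dorsal piece (75.9 to 289 against 2.26 to 107 CPM). The summed CPM of 12 RGC and axon markers was 1133 to 2925 in the axon libraries and higher there than in either other piece of the same embryo in 9 of 9 embryos. Elsewhere it was 45.2 to 1118 (dorsal) and 125 to 418 (ventral), apart from 1633 in the ventral piece of control 2, and values that rest on that library are also given without it where it moves them by more than 1.5 times. Of the 12 markers, Pou4f2 had no read in any axon library, Pou4f1 had none in the axon controls and Elavl4 none in the axon mutants. The others had reads in at least 1 axon library of each genotype. Pou4f2 also had no read in any dorsal library or ventral control, so its absence does not set the axon band apart.

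The sequences below show what sets the L1 family apart from the other 4 genes: the 5 codons of the ankyrin-binding motif, in capitals, with 9 coding bases on each side in lower case, read 5′ to 3′ on the coding strand (GENCODE M21 transcripts, mm10). The motif was searched in frame, with any codon allowed at the fourth place, in the longest complete coding sequence of each gene. It occurred once in each of the 4 L1 family genes, in the last exon, and in none of Ncam1, Cntn1, Cntn2 and Alcam. Among all 21523 genes with a complete coding sequence, 48 (0.223%) held it. The fourth codon was CAG in L1cam and Nfasc, CAA in Nrcam and GCA in Chl1.
L1cam, chrX:73855113-73855145, minus strand: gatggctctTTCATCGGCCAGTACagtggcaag
Chl1, chr6:103729240-103729272, plus strand: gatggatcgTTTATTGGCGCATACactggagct
Nrcam, chr12:44598477-44598509, plus strand: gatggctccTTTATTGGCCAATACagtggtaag
Nfasc, chr1:132570498-132570530, minus strand: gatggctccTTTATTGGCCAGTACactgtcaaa

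Ncam1 and Nrcam were found almost throughout, while the other members came and went between libraries. Ncam1 (chromosome 9, 49502136 to 49798925, mm10) had reads in 27 of 27 libraries and Nrcam (chromosome 12, 44328885 to 44601964) in 26. Alcam had reads in 22, Cntn1 in 20, Chl1 in 17, Nfasc in 14, L1cam in 11 and Cntn2 in 10. The mean over the 27 libraries was 96.7 CPM for Ncam1 and 54.6 for Nrcam, above 86.6% and 76.9% of the genes tested, and 4.28 CPM for Nfasc, above 30.6%. Per kilobase of exon, which allows genes to be set side by side, the mean of the dorsal controls was 11.7 CPM per kb for Ncam1, 5.54 for Alcam, 3.50 for Chl1, 3.08 for Nrcam, 2.39 for Cntn1, 2.28 for Cntn2 and 0.988 for L1cam. Neighbours in that order did not part beyond their spread, since the SD among these controls was 8.11 CPM per kb for Ncam1 and 4.35 for Alcam.

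**Figure D1:**
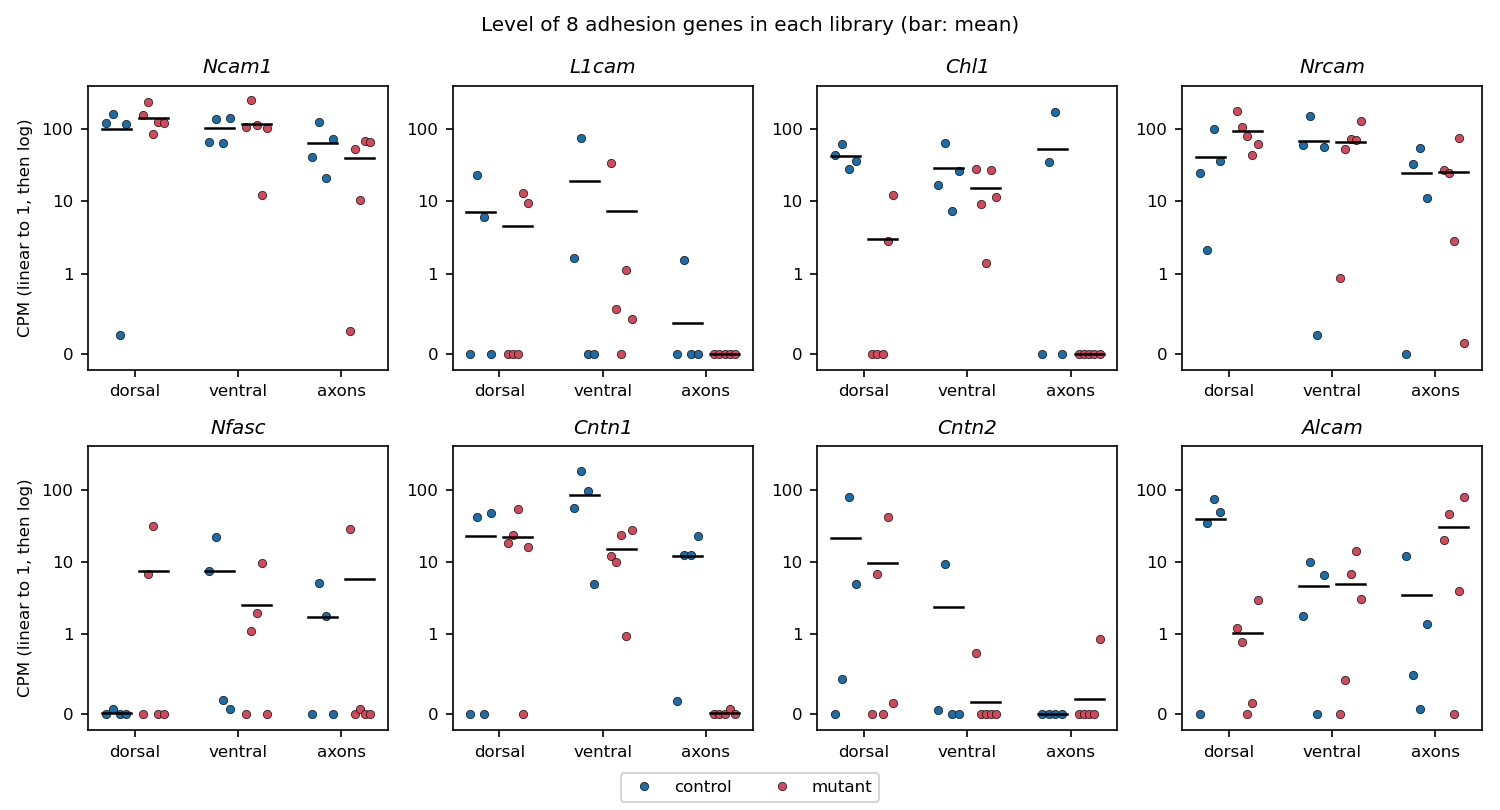
Level of each gene in each library in CPM (linear up to 1, logarithmic above), by region, with controls in blue, mutants in red and a bar at the mean of the 4 controls or 5 mutants. Chl1 in the dorsal piece is the case beyond the floor where no mutant reaches the lowest control. In the axon band the Cntn1 mutants lie below controls 2 to 4, while control 1, at 3 reads, is at the floor with them.

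Ncam1 had the highest mean of the 8 genes. It stood at 124, 163, 0.236 and 117 CPM in dorsal controls 1 to 4, a mean of 101 ± 70.3 (SD, n = 4), and at 146 ± 57.3 CPM in dorsal mutants (SD, n = 5; 85.5 to 237). Control 3 held only 4 reads and stood far below the other dorsal libraries. The ventral means were 104 ± 44.3 (SD, n = 4) and 119 ± 88.5 CPM (SD, n = 5), and the axon means were 65.8 ± 46.2 (SD, n = 4) and 40.4 ± 32.8 CPM (SD, n = 5). The order of the 6 group means ran from dorsal mutants down to axon mutants, with no neighbouring pair apart by more than 1 SD. Of the exonic bases of Ncam1, 4.81% overlap Gm11149 on the other strand.

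Nrcam, the L1 family member that RGC axons use when they cross the midline, was the other gene of broad level. It stood at 24.6, 2.11, 101 and 36.8 CPM in dorsal controls and at 182, 108, 80.9, 44.2 and 62.5 CPM in dorsal mutants. The dorsal mutants thus lay mostly above the controls, with 1 control (control 3) among them (two-sided exact p 0.0714, or 0.0179 without that control and 0.0857 to 0.196 without any other single library). Without control 2, at 2.11 CPM, the difference in log2(CPM + 1) fell from 1.87 to 0.90. The ventral means were 68.0 ± 63.7 (SD, n = 4; 39.4 without control 2) and 65.8 ± 46.0 CPM (SD, n = 5), and the axon means 24.9 ± 24.7 (SD, n = 4) and 26.0 CPM (0.133 to 74.9 in the 5 mutants).

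L1cam, the founding member of its family (chromosome X, 73853778 to 73896105; 1.36% of its exonic bases shared with Arhgap4), was high in few libraries. In the ventral controls it stood at 1.64, 76.1, 0 and 0 CPM, the 76.1 being control 2, whose axon markers also stood high, and in the ventral mutants at 34.5, 0.553, 0, 1.12 and 0.428 CPM. Without control 2 the ventral control mean dropped from 19.4 to 0.545 CPM. The dorsal means were 7.26 ± 10.9 (SD, n = 4) and 4.56 ± 6.37 CPM (SD, n = 5). In the axon band, where its protein is best known, L1cam RNA was at 0 in 8 of 9 libraries and at 1.53 CPM in control 2.

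Nfasc, which later clusters at the axon initial segment and at nodes, lies beside Cntn2 on chromosome 1 (132564690 to 132741797, and 132509427 to 132543256). It was at the floor in dorsal controls (1 read among 4 libraries) and at 0, 6.68, 31.0, 0 and 0 CPM in dorsal mutants. The ventral controls stood at 7.41, 21.8, 0.171 and 0.0621 CPM, a mean of 7.36 and of 2.55 without control 2, and the ventral mutants at 0 to 9.62. The axon controls stood at 0 to 5.02 CPM, and a single axon mutant reached 28.6. In no region did the genotypes separate.

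Cntn2, also known as TAG-1, is a marker of young axons. It had no read in the 4 axon controls and was at 0.932 CPM in mutant 5 and at 0 in the other axon mutants. Dorsal controls stood at 0, 0.434, 79.5 and 4.85 CPM and dorsal mutants at 0, 6.74, 0, 41.9 and 0.133 CPM. Ventrally it was at 9.31 CPM in control 2, at 0.757 in mutant 1, and at 0.0511 or below in the other 7 libraries. The dorsal control mean, 21.2 CPM, was at least 131-fold that of the axon controls when these are set at 3 reads per library, but dorsal control 3 alone supplied most of it.

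The first comparison asks which genes changed with the loss of Smarcc1 within each piece. By edgeR's quasi-likelihood test with batch as a term, 0 of the 8 members were called (adjusted p under 0.05 and absolute log2 fold change over 0.58) in the dorsal, ventral or axon libraries, against a background of 0.0124% of genes called in the dorsal piece (2 of 16145) and 0 of 16139 and 0 of 14977 in the others. At an unadjusted p under 0.05, 1 member stood in the dorsal piece (5.35% of all genes), 0 in the ventral piece (3.19%) and 2 in the axon band (3.55%). These were Chl1 in the dorsal piece, and Chl1 and Cntn1 in the axon band, each lower in mutants. The other members had unadjusted p of 0.393 to 0.945 (dorsal), 0.0713 to 0.93 (ventral) and 0.0974 to 0.765 (axons) by edgeR.

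Chl1, the close homologue of L1 (chromosome 6, 103510586 to 103750211), stood at 43.5, 63.2, 28.6 and 36.8 CPM in the dorsal controls. Among dorsal mutants 1 to 5 the values were 0, 0, 0, 2.83 and 12.2. The groups did not overlap, as was true in this direction of 1.61% of all genes. The mean was 14.3-fold lower in mutants (3.01 ± 5.30, SD, n = 5) than in controls (43.0 ± 14.8, SD, n = 4), and the log2 fold change by edgeR was -6.20 ± 2.60 (SE; unadjusted p 0.035, adjusted p 0.918). The two-sided exact permutation test gave a p of 0.0159 (0.025 over the splits that keep the batches, the smallest possible there) and of 0.191 after adjustment over the 24 such tests. The difference in log2(CPM + 1) was -5.48 within batch A and -2.55 within batch B. Leaving out any single library gave an exact p between 0.0286 and 0.0357. DESeq2 gave an adjusted p of 0.0144, the lowest among the alternatives run, which reached up to 1.

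In the ventral piece Chl1 did not part the genotypes, with 17.0, 64.8, 7.31 and 26.5 CPM in controls (mean 28.9, or 16.9 without control 2) and 28.0, 9.28, 1.38, 27.3 and 11.7 CPM in mutants. In the axon band it had no read in any of the 5 mutants and stood at 0, 35.6, 176 and 0 CPM in the controls. The control mean of 52.9 CPM was at least 326-fold the mutant floor, but the groups overlapped at 0, the unadjusted p by edgeR was 0.0422 (adjusted p 0.88), and the two-sided exact p was 0.167. Control 3 alone supplied most of that mean.

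Markers of 3 tissue types moved with Chl1 in the dorsal piece. The summed CPM of 8 mesenchyme markers was 1144 to 9987 in dorsal controls and 55.6 to 373 in dorsal mutants. Of the 8 markers, 7 were lower in mutants without overlap, as was true of 1.61% of all genes. The sum of 9 stalk and astrocyte progenitor markers was 2707 to 3607 against 944 to 1815, with 4 of the 9 not overlapping, in the same direction. None of the markers of these lists was at 0 in all libraries of a genotype in this piece. The sum of 8 pigment cell markers ran the other way, from 39.5 to 4889 CPM in dorsal controls and 3140 to 12090.0 in dorsal mutants, with 2 of the 8 not overlapping and Rpe65 at 0 in both genotypes. Higher in mutants without overlap were 1.31% of all genes. In the ventral piece, where the mesenchyme sum was 53.2 to 181 CPM in 8 of 9 libraries, those 8 libraries held 1.38 to 64.8 CPM of Chl1 (1.38 to 28.0 without control 2). Dorsal mutants 1 to 3, with mesenchyme sums of 55.6 to 107 CPM, had no Chl1 read. In the axon band the mesenchyme sum was 385 to 2371 CPM in controls, of which 2 had no Chl1 read. It was 517 to 2225 CPM in the 5 axon mutants, none of which had a Chl1 read. The part of these cell types in the dorsal result was not tested.

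Alcam moved with the same dorsal markers, more loosely. It stood at 0, 34.3, 74.1 and 49.3 CPM in the dorsal controls and at 1.19, 0.894, 0, 0.138 and 2.92 CPM in the mutants. Controls 2 to 4 stood above every mutant, but control 1 was at 0, so the groups overlapped (two-sided exact p 0.0635, or 0.1 within batches). The exact p was 0.0179 without control 1 and 0.125 or 0.143 without any other single library. Within batch A, of which control 1 is the only control, the mutants were higher (by 0.68 in log2(CPM + 1)), against -4.60 in batch B. In the axon band the direction was the opposite, with 11.9, 0.491, 0.0596 and 1.37 CPM in controls and 20.0, 46.8, 0, 3.97 and 80.2 CPM in mutants (exact permutation p 0.167, two-sided). The edgeR test of whether the genotype effect on Alcam differed between these pieces gave an unadjusted p of 0.0565 (adjusted p 0.961). The ventral means were 4.57 ± 4.52 (SD, n = 4; 2.79 without control 2) and 4.85 ± 5.81 CPM (SD, n = 5).

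Cntn1 (chromosome 15, 92051165 to 92341967), the contactin of axons and of oligodendrocyte lineage cells, was lower in axon mutants than in axon controls 2 to 4. It stood at 0.167, 12.3, 12.5 and 22.7 CPM in the axon controls and at 0, 0, 0, 0.0584 and 0 CPM in the axon mutants, a single read in 5 libraries. The groups did not overlap, as held in this direction for 1.04% of all genes, but control 1, with 3 reads, was itself at the floor. The control mean of 11.9 ± 9.21 CPM (SD, n = 4) was at least 73.4-fold the mutant floor. The unadjusted p by edgeR was 0.0217 (adjusted p 0.88) and the two-sided exact p was 0.00794 (0.025 within batches), the smallest that each can give, and 0.191 after adjustment over the 24 tests. Both exact p values need control 1 to rank above the mutants, an order that its 3 reads cannot give. Without control 1 the two-sided exact p was 0.0179. The difference in log2(CPM + 1) was -0.22 within batch A, which holds control 1 alone, and -3.98 within batch B. DESeq2 gave an adjusted p of 0.00045, and the alternatives ranged up to 1.

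The axon mutants had 9225 to 11358 genes with a read, against 10076 to 14118 in axon controls, and 9293 of the 14977 genes tested there were lower in mutants. Their RGC and axon marker sum, 1133 to 2925 CPM, overlapped the controls (1337 to 2307). In the ventral piece Cntn1 stood at 56.5, 183, 95.0 and 4.97 CPM in controls and at 12.1, 9.96, 23.7, 0.976 and 28.0 CPM in mutants (exact permutation p 0.143, two-sided). Without ventral control 2, the library with high axon markers, the control mean dropped from 84.8 to 52.2 CPM. The dorsal means lay close together, 22.5 ± 26.1 in controls (SD, n = 4) and 22.3 ± 19.7 CPM in mutants (SD, n = 5). Whether a genotype effect differed between pieces was tested as an interaction. For axon band against dorsal piece 1 member, Cntn1, had an unadjusted p under 0.05 (0.0184 by edgeR, adjusted p 0.886), where 4.95% of all genes did. For axon band against ventral piece it was Chl1 (0.0192, adjusted p 1), where 3.89% did, and for dorsal against ventral piece no member (2.29%). After adjustment 0 of 8 members were called in any of these, which called 0.0122%, 0% and 0.00612% of genes.

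**Figure D2:**
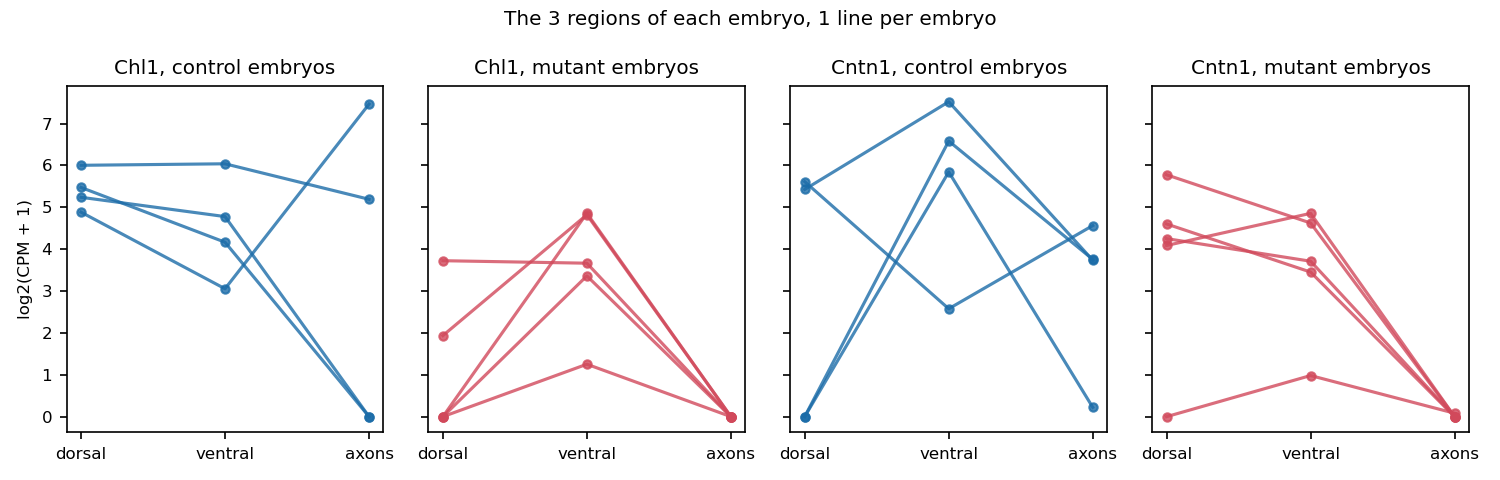
Chl1 and Cntn1 in the dorsal piece, ventral piece and axon band of each embryo, as log2(CPM + 1), with 1 line per embryo, 4 controls in blue and 5 mutants in red. Every mutant line ends at or next to 0 in the axon band, whereas Chl1 lines of 2 controls and Cntn1 lines of 3 controls do not.

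The next comparison sets the axon band against the stalk pieces of the same embryos. The summed level of the 8 genes was lower in the axon band than in the dorsal piece of each embryo. Ncam1 and Nrcam weigh most in that sum, with means of 96.7 and 54.6 CPM over the 27 libraries. The summed CPM of the 8 genes was 13.3 to 267 in axon libraries, 192 to 383 in dorsal libraries and 136 to 657 in ventral libraries (136 to 334 without control 2). It was lower in the axon band than in the dorsal piece in 9 of 9 embryos and than in the ventral piece in 7 of 9. The axon libraries also had a higher mitochondrial share of counts, 7.49% to 15.4% against 4.19% to 7.63% (dorsal) and 3.72% to 7.61% (ventral). Their genes with a read numbered 9225 to 14118, against 10881 to 16266 and 11727 to 16810. The part of these in the regional differences was not tested. All genes leaned the same way: 74.0% and 76.2% of genes tested had lower mean log2(CPM + 1) in the axon band. The members did so in 6 of 8 and 7 of 8 cases, with median differences of -1.55 and -1.48, beside medians of -0.52 and -0.51 over all genes.

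**Figure D3:**
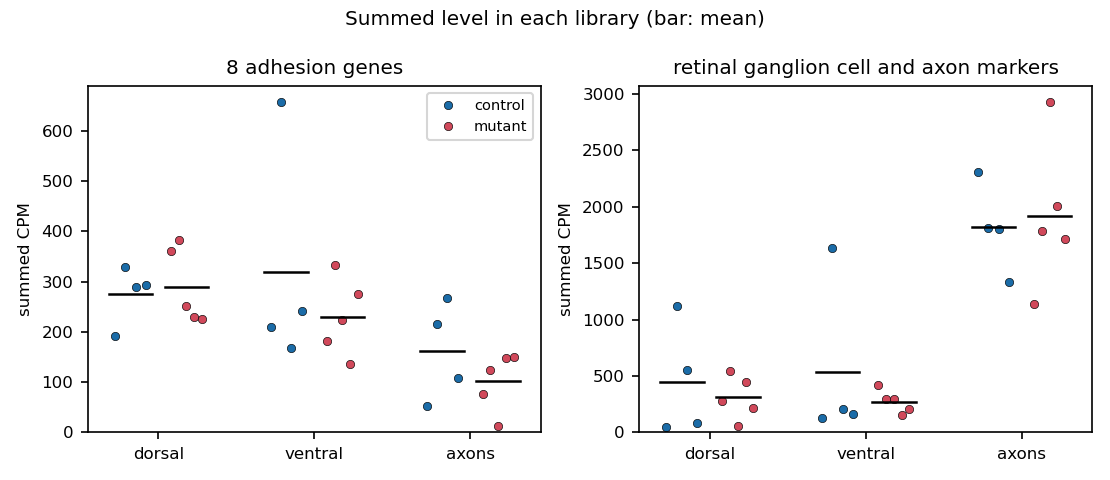
Summed CPM of the 8 adhesion genes (left) and of 12 RGC and axon markers (right) in each library, by region and genotype, with a bar at the group mean. The marker sum is highest in the axon band of each embryo, where the adhesion sum is below that of the dorsal piece in all 9 embryos; the high ventral control in both panels is control 2.

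With embryo as a block, edgeR called 0 of 8 members between axon band and dorsal piece over all embryos (background 1.35%), in controls (0.704%) or in mutants (0.698%). Between axon band and ventral piece it also called 0 of 8 over all embryos (0.857%), in controls (0.251%) or in mutants (0.545%). At an unadjusted p under 0.05 over all embryos, 4 members were lower than in the dorsal piece, where 13.1% of all genes stood under that p. They were L1cam (p 0.0274), Cntn2 (0.0303), Cntn1 (0.0379) and Chl1 (0.0472), all by edgeR. Against the ventral piece there were 3, where 11.8% of all genes stood under that p: Cntn1 (p 0.00317), Chl1 (0.00688) and L1cam (0.0162). In each of the 7 cases the axon libraries of 1 genotype were at the floor, so no fold over all embryos is given. The adjusted p of these 7 cases ran from 0.142 to 0.374. For the 4 against the dorsal piece the two-sided exact p was 0.125 (L1cam), 0.0938 (Cntn2), 0.0781 (Cntn1) and 0.125 (Chl1). In that order they were lower in the axon band in 4, 5, 6 and 5 of 9 embryos. In controls alone no member stood under an unadjusted p of 0.05 by edgeR in either comparison (6.09% and 4.51% of all genes did). In mutants alone there were 2 against the dorsal piece (12.2%) and 3 against the ventral piece (11.2%), drawn from Cntn1, Chl1 and L1cam, whose axon mutants were all at the floor. In controls the log2 fold change of Cntn1 by edgeR was 0.15 ± 2.43 against the dorsal piece and -4.22 ± 2.66 against the ventral piece (SE; unadjusted p 0.951 and 0.128). That of Chl1 was -1.46 ± 3.40 and -0.73 ± 3.33 (SE; unadjusted p 0.674 and 0.829).

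Cntn1 gave the steadiest regional difference. It was lower in the axon band than in the ventral piece in 8 of 9 embryos, as were 6.53% of genes in at least that many, with control 4 the exception. The mean within-embryo difference in log2(CPM + 1) was -3.09 ± 2.33 (SD, n = 9; two-sided exact p 0.0117), or 0.281 once adjusted over the 24 regional tests. Without control 2 the exact p was 0.0234. Within controls the mean was -2.56 and within mutants -3.51. By edgeR the unadjusted p was 0.0058 in mutants alone (adjusted p 0.22), and in mutants against the dorsal piece it was 0.00633 (adjusted p 0.203).

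Chl1 was likewise lower in the axon band than in the ventral piece in 8 of 9 embryos, control 3 being the exception with 176 against 7.31 CPM. The mean difference was -2.59 ± 3.02 (SD, n = 9; two-sided exact p 0.0352, and 0.282 after adjustment). Leaving out 1 embryo at a time moved that p to between 0.00781 and 0.0703, over 0.05 for 7 of the 9 embryos, so the result rests on the full set. In mutants alone, where all 5 axon libraries were at 0 and all 5 ventral ones were not, edgeR gave an unadjusted p of 0.00165 and an adjusted p of 0.134, and the ventral mean of 15.5 CPM was at least 95.7-fold the axon floor.

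L1cam was lower in the axon band than in the ventral piece in 6 of 9 embryos and equal, at 0, in the other 3. The two-sided exact p was 0.0312 (0.282 adjusted), and 0.0625 without control 1 or 2 or without mutant 1, 2, 4 or 5. Ncam1 was lower in the axon band than in both other pieces in 8 of 9 embryos each (against dorsal 5.98% of genes were, in at least that many), with mean differences of -1.35 ± 2.89 against dorsal and -1.50 ± 2.42 against ventral (SD, n = 9), and exact permutation p of 0.215 and 0.0977 (two-sided). The exceptions were control 3 against dorsal and mutant 4 against ventral, in which the stalk piece was low. Against ventral, the mean difference was -0.89 without mutant 1, and the exact p was 0.00781 without mutant 4. Nrcam was lower in 7 of 9 against dorsal (two-sided exact p 0.0703; 16.5% of genes were lower in 7 or more) and in 6 of 9 against ventral. Alcam and Nfasc had mean differences between -0.54 and 0.78, with exact permutation p of 0.5 or more. For Alcam against dorsal the genotypes went opposite ways, with a mean of -2.86 in controls (lower in 3 of 4) and 2.88 in mutants (lower in 0 of 5).

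**Figure D4:**
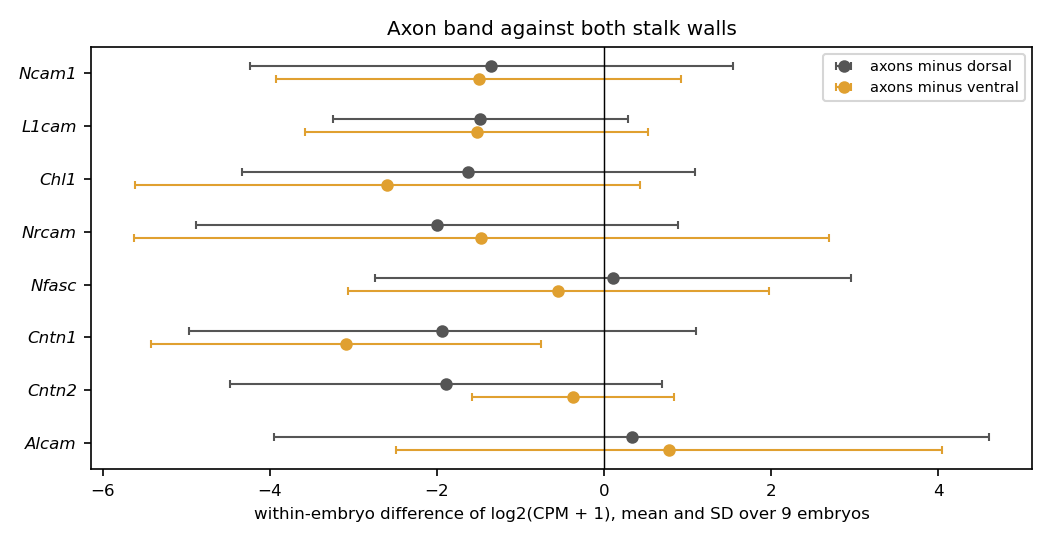
Within-embryo difference of log2(CPM + 1) between the axon band and the dorsal (grey) or ventral (orange) piece for each gene, as mean and SD over 9 embryos. Cntn1 and Chl1 against the ventral piece lie farthest below 0, at -3.09 and -2.59, and Alcam is the only gene above 0 in both.

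Between dorsal and ventral pieces edgeR called 0 of 8 members over all embryos (background 0.049%), in controls (0%) or in mutants (0.0306%). Nfasc had the single unadjusted p under 0.05 by edgeR, 0.0471 in controls (adjusted p 1; 2.99% of all genes stood under 0.05 there, 4.71% over all embryos and 3.71% in mutants), where the dorsal controls were at the floor and the ventral mean was at least 42.7-fold higher, or at least 14.8-fold without ventral control 2. Nfasc was lower in the dorsal piece in controls 1 and 2. In controls 3 and 4 both pieces held 3 reads or fewer, which gives no order. Over the 9 embryos the exact permutation p of the 8 members lay between 0.203 and 0.953.

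Other genes of the same adhesion family and the genes whose products work with the members were followed as 2 lists. Of 35 other immunoglobulin-family adhesion genes, 34 passed the filter, and edgeR called 0 of them between genotypes in any region. Between axon band and ventral piece over all embryos it called 1, Nectin3, an adhesion molecule of cell junctions, which was lower in the axon band (log2 fold change -1.40 ± 0.33, SE; adjusted p 0.0459). Nectin3 stood at 26.5 to 141 CPM in axon libraries and 114 to 397.5 CPM in ventral ones, and the list had 0 genes called when control 1, 3 or 4 or mutant 1, 3, 4 or 5 was left out, 1 without mutant 2 and 2 without control 2. Against the dorsal piece 0 were called, Nectin3 (adjusted p 0.0533) and Cntn6 (0.0551), another contactin, coming nearest by edgeR. Cntn6 had no read in 7 of 9 axon libraries and 1.37 to 96.5 CPM in the ventral ones. Of the 34, 29 were lower in the axon band than in the dorsal piece and 30 than in the ventral piece (median differences in log2(CPM + 1) of -1.04 and -0.71), shares of 85.3% and 88.2% beside 74.0% and 76.2% of all genes.

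The smallest unadjusted p of that list between genotypes were those of Cadm1 (0.0111), Mcam (0.0328) and Kirrel3 (0.124) in the dorsal piece, of Bsg (0.0221), Cntn6 (0.0556) and Igsf3 (0.0752) in the ventral piece, and of Opcml (0.0529), Ntm (0.155) and Iglon5 (0.175) in the axon band, all by edgeR. Both Cadm1 and Mcam parted the dorsal genotypes without overlap, in opposite directions. Mcam, an adhesion molecule of vessel and pigment cells, stood at 55.9 to 147 CPM in controls and 0 to 28.8 CPM in mutants. Lower in mutants without overlap were 1.61% of all genes. For Cadm1, a nectin-like adhesion molecule, dorsal controls stood at 267, 304, 41.8 and 140.5 CPM and dorsal mutants at 685, 457, 465, 449.5 and 480 CPM, with no overlap, as was true in that direction of 1.31% of all genes. The adjusted p by edgeR was 0.918. Each dorsal mutant thus held more Cadm1 and less Chl1 than every dorsal control, although neither gene passed the adjusted test.

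Of 21 partner genes (ankyrins, spectrins, ERM linkers, Caspr proteins, receptor phosphatases, polysialyltransferases and others), 18 passed the filter, and edgeR called 0 in any comparison. Those with the smallest unadjusted p in the dorsal piece were Sptbn1 (0.0233), Ptprg (0.0911) and Ank3 (0.262), in the ventral piece Nrp1 (0.0469), Dlg1 (0.143) and Ptpra (0.144), and in the axon band Rdx (0.0493), St8sia2 (0.146) and Fyn (0.154), by edgeR. Sptbn1, the beta spectrin to which ankyrin ties L1 family tails, stood at 424 to 827 CPM in dorsal controls and 130 to 368 CPM in dorsal mutants, with no overlap. In that direction 1.61% of all genes did not overlap, and the adjusted p of Sptbn1 by edgeR was 0.918. Cntnap2, the Caspr protein partnered by Cntn2, was the partner with the smallest unadjusted p between axon band and dorsal piece (0.00673 by edgeR; adjusted p 0.174), and stood at 149 to 533 CPM in axon libraries against 0 to 250.5 CPM in dorsal ones; Cntn2 had no read in 8 of the 9 axon libraries. Of 18 partners, 15 had lower mean log2(CPM + 1) in the axon band than in the dorsal piece, and 15 than in the ventral piece. These counts are 83.3% of the partners each, beside 74.0% and 76.2% of all genes. With TMM-scaled library sizes these counts were 12 and 13 (66.7% and 72.2%), beside 69.3% and 71.5% of all genes.

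The members did not rise and fall together. Over the 27 libraries the highest Pearson correlation of log2(CPM + 1) among the 28 pairs was 0.502 (Ncam1 with Cntn1) and the lowest was -0.348 (Ncam1 with Alcam), given as a description since the libraries share embryos and many values are 0. Of 10294 genes with a mean of at least 5 CPM, those most like Chl1 in their pattern were Lama5 (0.809), a laminin chain, and B3galt1 (0.766). Alcam was most like Col5a1 (0.711) and Fap (0.700), a collagen and a protease of connective tissue cells. The nearest to Cntn1 were Rab35 (0.796) and Trappc9 (0.748), to Ncam1 Fbxo5 (0.828) and Ago2 (0.820), to L1cam Sez6 (0.751) and Trim67 (0.719), and to Cntn2 Cnr1 (0.780) and Zfp772 (0.759). Nrcam was nearest to Gpn3 (0.698) and Kif20a (0.684), and Nfasc to Carmil1 (0.726) and Ccdc8 (0.720). These are Pearson values, each among the highest of the 10294 genes searched, and are a description only. The Spearman correlations of the same pairs ran from 0.337 (Ncam1 with Fbxo5) to 0.817 (Chl1 with Lama5). They were 0.438 for Nrcam with Gpn3 and 0.478 for L1cam with Sez6.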

How the data were processed

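The deposited values are raw read counts per Ensembl gene. For these the authors ran Seq2Science with default settings, in which STAR placed single-end reads on mm10 and HTSeq counted them. Versions, annotation and strand setting are not given in the sources used here, so overlapping genes on either strand cannot be told apart. CPM was counts over the total count of a library. Symbols and positions came from GENCODE M21 (346 of 55487 identifiers unmatched, with 0.0148% of counts).

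Counts were tested with edgeR 4.0.16 in R 4.3.3 (quasi-likelihood F-test, robust, TMM, legacy setting) on genes with over 10 reads in 3 or more libraries, with Benjamini-Hochberg adjustment over all genes tested. Genotypes were compared within a region with batch as a term, and regions in 1 model of 27 libraries with embryo as a block, since each embryo gave all 3 pieces. Libraries of 1 embryo deviated together weakly: the correlation of their deviations from group means had a median of 0.0369 over 27 pairs, against -0.00496 over 216 pairs of other embryos. Single members were also tested by exact permutation of log2(CPM + 1), over 126 splits (40 within batches) for genotype and 512 sign changes for regions. Standard errors of fold changes were derived from the F statistic. P-values rest on embryos, which the labels number but do not describe further. The steps were tested on simulated data. Python 3.11.15 was used for the rest.

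The 8 members, the marker and gene lists and the tests were chosen with earlier results of these data known. All members are named, and their fitted folds are printed where the unadjusted p was under 0.05 and no group was at the floor. Folds of Cntn1 and Chl1 between axon band and stalk pieces in controls are printed as well, whatever their p. Listed genes are named where called or, if none was, for the 3 smallest p. Alternatives were RLE scaling, no count filter, a newer edgeR setting, DESeq2 1.42.0, limma 3.58.1 voom, other model terms and each library or embryo left out.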

Additional observations from a re-analysis of the deposited data

Results flagged for a closer look

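In 43 of the 48 combinations of member and group (the other 5 were at the floor), single libraries were set against the rest of their group by Dixon's test, which by chance picks out about 1 in 20 groups of normally spread values. These CPM values are not so spread: where all libraries but 1 are at 0, that library is always picked out, as in 3 of the cases here. The test picked out 13, in each of which 1 library stood high. For L1cam these were ventral mutant 1 at 34.5 CPM (next 1.12), ventral control 2 at 76.1 CPM (next 1.64) and axon control 2 at 1.53 CPM (next 0). For Nfasc they were dorsal mutant 3 at 31.0 CPM (next 6.68), ventral mutant 4 at 9.62 CPM (next 1.97) and axon mutant 1 at 28.6 CPM (next 0.068). For Cntn2 they were dorsal control 3 at 79.5 CPM (next 4.85), dorsal mutant 4 at 41.9 CPM (next 6.74), ventral control 2 at 9.31 CPM (next 0.0511), ventral mutant 1 at 0.757 CPM (next 0) and axon mutant 5 at 0.932 CPM (next 0). The others were Chl1 in dorsal mutant 5 at 12.2 CPM (next 2.83) and Alcam in axon control 1 at 11.9 CPM (next 1.37). The 3 genes with most such libraries, L1cam, Nfasc and Cntn2, were also the 3 with reads in the fewest libraries (11, 14 and 10 of 27).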

How the results depend on the processing

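The count of members called was 0 in all 15 comparisons with edgeR under every alternative that kept its model terms, leave-outs included (0 to 0). DESeq2 called 1, 0 and 2 members between genotypes (dorsal, ventral, axons), 3, 1 and 4 between axon band and dorsal piece (all embryos, controls, mutants), 3, 1 and 2 between axon band and ventral piece, 0, 1 and 1 between dorsal and ventral pieces, and 4, 2 and 1 in the differences of genotype effect. limma voom called 1 (axons against dorsal, mutants), 1 and 2 (axons against ventral, all embryos and mutants). DESeq2 also called far more of all genes (532, 342 and 1233 between genotypes, against 2, 0 and 0; 4231 and 4058 between axon band and stalk pieces, against 221 and 140); limma voom called 41, 6 and 45, and 799 and 663, and the newer edgeR setting 39, 0 and 0, and 423 and 243. Between dorsal and ventral pieces, where 8 genes were called, these tools called 1242, 47 and 37. With no count filter edgeR called 101, 8 and 10 genes between genotypes, and RLE scaling moved the all-gene median of the log2 fold change from -0.84 to -0.99 between axon band and dorsal piece. The cause was not tested.

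Pairing and the replicate block: control and mutant embryos of 1 number share only that number (correlations of -0.0509 to 0.0279), and a block on it left 0 members called and moved the genes called in the dorsal piece from 2 to 0. Without the embryo block, 1 member (Cntn1) was called in axons against dorsal in mutants (adjusted p 0.0395) and 1 in axons against ventral over all embryos (0.0487).

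Of the other adhesion genes DESeq2 called 1 and 2 (dorsal, axons, genotype) and 17, 10 and 2 between regions (axons against dorsal, axons against ventral, dorsal against ventral), limma voom 4 and 2, the newer setting 2, RLE scaling 1 and no block 2 in axons against dorsal, and no count filter 0 in axons against ventral. Leave-outs gave 0 to 1 and 0 to 2. Of the partners DESeq2 called 1 (ventral), 1 (axons), 5 and 3 (axons and dorsal-ventral), the newer setting 1 and 2, and leave-outs 0 to 1. Another pseudocount (0.1 CPM) and library-size scaling, both chosen after seeing the data, were run only for single-gene differences with an exact p under 0.1. The directions of these held, and the other named differences were not rerun in this way. The exact p of Chl1 in the dorsal piece and of Cntn1 in the axon band stayed under 0.05 throughout. That of Cntn1 ranks axon control 1, at 3 reads, above the mutants, except where control 1 was left out. Depth leaves values at or under 3 reads without an order.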
